A study of Mus musculus with 2 samples.

Results

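Myf5 and Myf6 are neighbouring genes on mouse chromosome 10 that encode myogenic regulatory factors, and their shared regulatory array is described here from DNase-seq of muscle. The members are 2 of 21853 protein-coding genes, taken by name from GENCODE M21. Their array was the stretch from the lower to the higher gene end plus 200 kb on each side, chr10:107282908-107694737 in mm10, or 412 kb. It held 14 of the 123255 deposited peaks of replicate 1 and 19 of the 150088 of replicate 2, and these fell on 24 sites. DNase-seq sequences the ends of fragments that DNase I cuts out of nuclei, so that a peak marks open chromatin and a footprint inside it marks a short stretch shielded from cutting. The tissue was gastrocnemius, the large calf muscle, from male mice aged 10 days of the hybrid strain B6CASTF1/J, which carries 1 B6 and 1 CAST allele of each autosomal gene. The 2 libraries form 1 group and are labelled biological replicates 1 and 2. They share a donor record that names 3 males, and whether tissue was pooled is not stated. Tests between them set the difference between these 2 libraries against counting error, and that difference may be technical. In whole muscle, fewer nuclei with an open site and less cutting per nucleus cannot be told apart.

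Myf5 and Myf6 (also called Mrf4) are basic helix-loop-helix factors that, with Myod1 and Myog, bind E-box sequences as dimers with E proteins and switch on muscle genes. Myf5 starts the programme in the somites of the embryo and is kept in satellite cells, the stem cells of muscle, whereas Myf6 is the member of the family best known from differentiated myofibres. Transgenic studies have placed their enhancers far upstream, between the 2 genes and within the neighbouring Ptprq, where a set of elements is shared or contested between both promoters.

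Both genes lie on the minus strand. Myf5 (ENSMUSG00000000435.1) spans chr10:107482908-107486134 and Myf6 (ENSMUSG00000035923.4) chr10:107492853-107494737, upstream of it, with starts 8603 bp apart. Sites are named by the distance of their centre from the Myf5 start in kb, with negative values upstream. The sequences that follow are those of the 5 distal sites with a footprint in both libraries, of the first coding exons of both genes and of the highest peak seen in 1 library alone. They were read from the RefSeq genome of the mm10 build (GRCm38.p6) on the minus strand, 5′ to 3′, over the bases that the peaks of both libraries share, or over the peak of the library named. Capitals mark bases inside footprints of both libraries or, for the last 3, of the library that has the peak.
Site -77.0 kb in Ptprq, chr10:107563001-107563180: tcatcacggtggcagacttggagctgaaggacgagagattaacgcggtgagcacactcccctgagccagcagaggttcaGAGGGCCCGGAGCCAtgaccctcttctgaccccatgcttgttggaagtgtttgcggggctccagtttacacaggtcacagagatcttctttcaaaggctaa
Site -176.5 kb in Ptprq, chr10:107662501-107662660: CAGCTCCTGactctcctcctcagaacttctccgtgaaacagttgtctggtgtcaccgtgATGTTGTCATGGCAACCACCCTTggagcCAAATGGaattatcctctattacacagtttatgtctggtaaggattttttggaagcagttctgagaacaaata
Site 96.4 kb in Lin7a, chr10:107389701-107389860: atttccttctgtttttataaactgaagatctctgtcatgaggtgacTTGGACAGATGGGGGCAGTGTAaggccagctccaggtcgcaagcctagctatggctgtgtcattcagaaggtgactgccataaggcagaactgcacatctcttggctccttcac
Site 124.4 kb in Lin7a, chr10:107361701-107361880: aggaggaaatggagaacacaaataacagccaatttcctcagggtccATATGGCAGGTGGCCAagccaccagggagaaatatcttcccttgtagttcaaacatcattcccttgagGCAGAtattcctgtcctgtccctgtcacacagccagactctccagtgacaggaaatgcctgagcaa
Site 43.1 kb, intergenic, chr10:107442921-107443060: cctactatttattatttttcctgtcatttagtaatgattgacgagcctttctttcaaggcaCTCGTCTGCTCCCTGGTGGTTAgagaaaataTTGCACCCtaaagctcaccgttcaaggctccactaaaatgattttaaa
Site 0.4 kb, Myf5 first coding exon, chr10:107485621-107485800: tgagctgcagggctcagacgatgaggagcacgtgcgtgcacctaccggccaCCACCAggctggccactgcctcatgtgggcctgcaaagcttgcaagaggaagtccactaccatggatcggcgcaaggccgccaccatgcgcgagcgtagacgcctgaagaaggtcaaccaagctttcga
Site -8.4 kb, Myf6 first coding exon, replicate 1, chr10:107494437-107494565: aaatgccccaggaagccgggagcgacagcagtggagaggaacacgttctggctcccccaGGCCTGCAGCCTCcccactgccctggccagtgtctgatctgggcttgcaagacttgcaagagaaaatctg
Site -8.3 kb, Myf6 first coding exon, replicate 2, chr10:107494361-107494420: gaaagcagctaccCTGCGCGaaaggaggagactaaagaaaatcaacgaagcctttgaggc
Site -13.7 kb, upstream of Myf6, replicate 2, chr10:107499761-107499940: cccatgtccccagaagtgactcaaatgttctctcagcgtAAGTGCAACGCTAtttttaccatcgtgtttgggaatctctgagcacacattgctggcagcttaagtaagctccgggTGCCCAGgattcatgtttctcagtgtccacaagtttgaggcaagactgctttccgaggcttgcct

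The tissue label was checked first. Promoter peaks, meaning a peak that overlaps the 500 bp on either side of a coding start, were present in both libraries at 8 of 8 skeletal muscle markers and 5 of 5 satellite cell markers. Those of fibroblasts (3 of 3) and endothelium (3 of 3) also had them, and those of macrophages had them in both libraries at 0 of 3 and in replicate 2 at 2 of 3 (Csf1r with 0.616 and Cd68 with 0.833). Over all protein-coding genes the share in both libraries was 66.0%, so a promoter peak alone says little of the tissue. Median values in replicates 1 and 2 were 2.93 and 5.64 for muscle and 2.7 and 3.04 for satellite cell markers. For fibroblasts they were 5 and 5.57 and for endothelium 0.87 and 1.19, against 4.64 and 6.44 over all promoters with a peak. Of 2 markers of inner ear and kidney, tissues where Ptprq is known to act, Nphs1 had no peak. Myo7a, a myosin of hair cells, had 0.827 in replicate 1 and 0.898 in replicate 2, close to the Myf5 promoter given next. With 1000 bp on either side of a start they were further apart, with 2.31 and 1.83 at Myo7a and 0.756 and 0.927 at Myf5. The part that the mix of cell types has in the values of the array was not tested. Peak values are the deposited signal, scaled to depth, with genome medians of 0.729 in replicate 1 and 0.716 in replicate 2. If each step of the values is 1 sequenced tag, these medians correspond to 134 and 122 tags. That reading is inferred from the values, and all tag counts, intervals and tests of tags below rest on it.

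Both members had a promoter peak in both libraries, as did 66.0% of protein-coding genes, but at low values. At Myf6 the peaks of the libraries did not overlap. The Myf5 promoter reached 0.653 in replicate 1 (120 tags, 95% exact Poisson interval 0.541 to 0.78) and 0.927 in replicate 2 (158 tags, 0.788 to 1.08). The Myf6 promoter reached 0.479 in replicate 1 (88 tags, 0.384 to 0.59) and 0.511 in replicate 2 (87 tags, 0.409 to 0.63). Among promoters with a peak, 8.15% and 13.0% were lower than Myf5 in replicates 1 and 2, and 4.59% and 6.13% were lower than Myf6. The medians over all promoters with a peak were 4.64 and 6.44. Neither gene had a promoter peak in the stricter of the 2 deposited peak sets. Of the neighbours, Lin7a, a scaffold protein of cell junctions whose start lies outside the array, had 0.87 and 0.81, in the stricter set as well. No promoter peak was found in either library at Ptprq, a receptor phosphatase of the inner ear hair cell, whose start lies 25314 bp outside the array.

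At Myf5 the peaks lay mainly on the first exon. In both libraries 1 peak lay on the first coding exon (site 0.4 kb) and another lay beside it (site 0.1 kb), with 0.489 in replicate 1 and 0.786 in replicate 2, where alone it reached past the annotated start. The first coding exon is rich in G and C, with 59.7% over the 335 bp of the site and 15 CpG. Its only footprint seen in both libraries covers the bases in capitals above. The site at -0.8 kb, chr10:107486801-107487036, had 0.756 and 0.88, and it was in the stricter peak set in replicate 1 alone. It holds the start of a predicted RefSeq model of Myf5, at -793 bp from the annotated start and so outside the promoter window of 500 bp. The last coding exon of Myf5 (site 2.0 kb) had a peak of 0.5 in replicate 1 alone. RefSeq's promoter table holds Myf5, and none of the 14 motifs searched, E-boxes included, was found in the 250 bases before its start, where 66.2% of 32851 RefSeq windows hold the E-box core CANNTG. The letters TATATAAA begin 19 bases after that annotated start, at chr10:107486109-107486116, and TATAAA occurs in 8.32% of the RefSeq windows when the 50 bases after the start are included.

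At Myf6 the libraries placed their peaks beside each other and not on the same bases. The peak of replicate 1 covered chr10:107494437-107494565 and that of replicate 2 chr10:107494361-107494420, both in the first coding exon. Each held 1 footprint, shown in capitals above. Replicate 1 had a further peak of 0.538 with 2 footprints over the last coding exon (site -7.3 kb). Replicate 2 had 0 listed bases there, that is, bases with a deposited false discovery rate (FDR) under 0.05. In the first coding exon the peak of replicate 1 had 119 listed bases, with a lowest FDR of 0.027. That of replicate 2 had 21 listed bases of 60, with a lowest FDR of 0.039. Replicate 1 had 0 listed bases under the peak of replicate 2, and replicate 2 had 24 under that of replicate 1. The 60 bases of the Myf6 peak of replicate 2 matched the first coding exon of Myf5 at 42 of 60 positions without gaps, and the next best placement matched at 25. That stretch of Myf5 lies inside a peak in both libraries. The exons encode the related helix-loop-helix domains of the 2 factors.

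**Figure D1:**
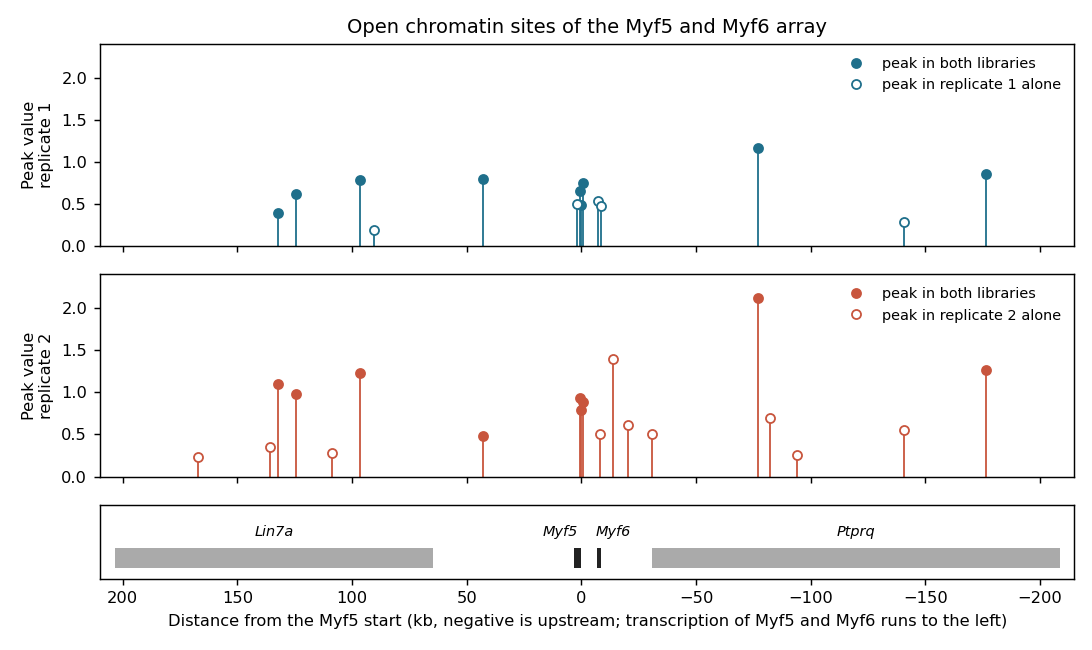
Peak value (deposited depth-scaled signal) at each of the 24 sites of the array against distance from the Myf5 start in kb, for replicate 1 (top) and replicate 2 (middle), with the coding genes below. Filled points are the 9 sites with a peak in both libraries and open points those with a peak in 1, and the highest in each library is the site at -77.0 kb, at 1.17 and 2.12.

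Across the array the peaks were of low to middle height. They numbered 3.4 and 4.61 per 100 kb in replicates 1 and 2, against 4.52 and 5.51 over the genome. Values ran from 0.196 to 1.17 in replicate 1, with a median of 0.582, and from 0.229 to 2.12 in replicate 2, with a median of 0.698. The peak with the highest value stood above 67% of all peaks in replicate 1 and above 81.5% in replicate 2. Only 5 of 14 and 9 of 19 peaks passed the median of their library. Peaks with an overlapping peak in the other library made up 9 of 14 in replicate 1 (64.3%, against 78.2% of all its peaks) and 9 of 19 in replicate 2 (47.4%, against 64.1%). The stricter peak set kept 6 and 10 of them, and 5 sites were in it in both libraries: -176.5, -77.0, 43.1, 96.4 and 124.4 kb.

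The highest site lay within Ptprq at -77.0 kb, chr10:107563001-107563200, over 66 coding bases of an exon and the intron beside it. Its value was 1.17 in replicate 1 (215 tags, interval 1.02 to 1.34) and 2.12 in replicate 2 (362 tags, 1.91 to 2.36), and these intervals did not overlap. Every base of it was listed in both libraries, down to an FDR of 1.6e-13 and 1.9e-31, the lowest of the array in each. A footprint of 19 bp in replicate 1 and one of 20 bp in replicate 2 overlapped on the capitals shown above. A neighbouring peak further upstream, at -82.3 kb in a Ptprq intron, was found in replicate 2 alone, with 0.698 and 3 footprints, and replicate 1 had 12 listed bases there.

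The most distant shared site upstream, at -176.5 kb, chr10:107662501-107662680, also overlapped a Ptprq coding exon, by 121 coding bases. It had 0.859 in replicate 1 and 1.27 in replicate 2, and the libraries shared 3 footprints in it. The widest measured 23 bp in replicate 1 and 27 bp in replicate 2 and contained GTTGTCATGGCAAC at chr10:107662586-107662599, a near-palindrome of the type known as the X-box of RFX factors. The form GTTGNCATGGNAAC, searched on both strands after the sequence had been seen, occurs in the central 150 bp of 0.0535% of all peaks in replicate 1 and 0.0613% in replicate 2. A match describes the letters and is not evidence that a factor was bound.

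Within Lin7a, downstream of Myf5, 3 intronic sites were shared. The site at 96.4 kb, chr10:107389701-107389860, had 0.783 in replicate 1 and 1.23 in replicate 2. Footprints of 22 bp and 31 bp overlapped there, and they held the E-box CATCTG, read as CAGATG on the strand shown. At 124.4 kb, chr10:107361681-107361880, the values were 0.625 and 0.98, and a footprint of 22 bp in each library held the E-box CACCTG at chr10:107361823-107361828, read as CAGGTG on the strand shown. The site at 132.4 kb, chr10:107353641-107353800, had 0.392 with 0 footprints in replicate 1 and 1.1 with 5 footprints in replicate 2. It was the shared site on which the libraries differed most.

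The site at 43.1 kb, chr10:107442901-107443080, is intergenic, between the ends of Myf5 and Lin7a. With 0.799 in replicate 1 and 0.481 in replicate 2, it was the single shared site that was higher in replicate 1. It had 5 and 3 footprints, and the widest pair, of 31 and 22 bp, overlapped on the longer run of capitals above.

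The highest peak without a partner lay 5.1 kb upstream of the Myf6 start, at -13.7 kb, chr10:107499761-107499940. It had 1.39 in replicate 2 (236 tags, interval 1.21 to 1.57), which was second to the -77.0 kb site in that library. Replicate 1 had 0 listed bases and no peak there, although its own peaks of the array went down to 36 tags. Replicate 2 had 2 footprints in it and a TGAGTCA, the letters of an AP-1 site, outside both. The interval from the Myf6 start to the end of Ptprq, 22.3 kb, held 3 peaks in replicate 2 and 0 in replicate 1. The other pair were at -20.5 kb, with 0.616 and a CACCTG inside its footprint, and at -30.8 kb, with 0.505. Apart from the sites named so far, replicate 2 alone had peaks of 0.229 to 0.558 at 5 sites, and replicate 1 alone had peaks of 0.196 and 0.283 at 2 sites that were 100% and 76.4% soft-masked repeat.

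**Figure D2:**
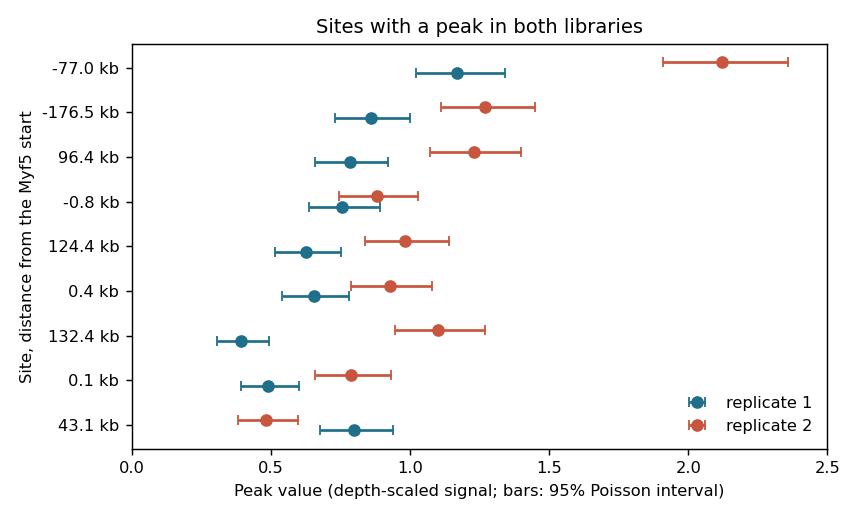
Peak value (deposited depth-scaled signal, horizontal axis) of the 9 shared sites in replicate 1 and replicate 2, with bars for the 95% exact Poisson interval on the tags, ordered by the geometric mean of both values. Replicate 2 is higher at 8 of 9 sites, and the site at 43.1 kb shows the opposite order.

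The libraries differed at most shared sites, in an exact binomial test of the tags with Benjamini-Hochberg adjustment over all 91314 one-to-one shared peaks of the genome. In the array 8 of 9 sites were called, against 60.3% of all shared peaks. For 7 of them replicate 2 was higher, a direction called at 44.4% of all shared peaks. The median of replicate 2 over replicate 1 was 1.57-fold in the array and 1.18-fold over the genome. In the exact test the difference was 1.82-fold at -77.0 kb (adjusted p = 9.43e-12), 2.8-fold at 132.4 kb (adjusted p = 2.47e-14) and 0.602-fold at 43.1 kb (adjusted p = 0.000479). At -0.8 kb the ratio of 1.16 was not called by the exact test (adjusted p = 0.265). With the genome median set to no difference, 6 of 9 sites were called, against 58.6%. The sites at 0.4 kb in Myf5 (adjusted exact p = 0.189) and at -176.5 kb (adjusted exact p = 0.0509) were those that lost the call. These p-values cover counting error between 2 libraries and say nothing of a condition. Paired peaks need not cover the same bases, as at the Myf5 sites at 0.4 and 0.1 kb. The part of peak placement in the differences was not tested.

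Footprints in the array numbered 21 in replicate 1 and 41 in replicate 2. At least 1 footprint lay in 9 of 14 peaks of replicate 1 (64.3%, against 81.7% of all its peaks) and in 15 of 19 of replicate 2 (78.9%, against 82.0%). Of the footprints, 12 in replicate 1 (57.1%) and 11 in replicate 2 (26.8%) overlapped one of the other library. They were 7 to 31 bp wide with a median of 9 bp in both libraries. The sites at which they overlapped were 6: the 5 distal sites named above and the first coding exon of Myf5.

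Stretches without a peak in either library took up most of the array. The interval between the genes is where transgenic studies place the early epaxial enhancer, which starts Myf5 in the somite, and a stretch of 6.34 kb, from -0.9 to -7.2 kb, that takes in most of this interval and the end of Myf6 had 0 listed bases in both libraries. The stretch from -30.8 to -76.9 kb, 46.0 kb, had 59 and 91 listed bases and 0 footprints, and it includes the area where a limb enhancer bound by Pax3 has been mapped. A further 46.3 kb, from -94.2 to -140.5 kb, had 21 and 0 listed bases. Downstream of Myf5 the longest such stretch was 47.1 kb, from 90.3 to 43.2 kb, with 58 and 46 listed bases. A peak below the height at which the caller reports it would not appear in these counts.

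Sequence letters known from myogenic regulators were searched on both strands in the central 150 bp, a window centred on each of the array's peaks. It runs past the edges of shorter peaks, and a window of 300 bp runs past most, so some letters counted lie in flanking bases. The E-box core CANNTG occurred in 8 of 14 peaks of replicate 1 (57.1%, against 59.2% of all peaks) and in 14 of 19 of replicate 2 (73.7%, against 62.5%). In the central 300 bp both orders turned, with 85.7% against 79.8% in replicate 1 and 78.9% against 81.9% in replicate 2. Its form CAGCTG, preferred by Myod1 and Myog, occurred in 0 and 2 array peaks, against 18.4% and 21.7% of all peaks. CACCTG, another E-box form and so also counted under CANNTG, occurred in 2 and 2, against 13% and 12%. The TEAD letters GGAATG occurred in the windows of 2 and 3 peaks (14.3% and 15.8%), against 8.56% and 9.53%, and in the central 300 bp in 6 and 7 (42.9% and 36.8%), against 16.2% and 17.5%. Inside the peaks themselves, GGAATG was found only at 124.4 kb and, in the peak of replicate 1 alone, at 0.4 kb. An E-box lay in a footprint of both libraries at 3 sites, which were 124.4, 96.4 and -176.5 kb. The MEF3 letters TCAGGTTTC, the RUNX letters TGTGGTT, the paired-domain letters GTCACGC, the short NFI form TTGGCA and the full NFI palindrome, the MEF2, CArG and CTCF core motifs were found in 0 array peaks in that window. TAATTA, the homeodomain letters, and TGANTCA, the AP-1 letters, occurred in 1 peak each, in replicate 2. With so few peaks these shares are a description, and no match says only that these letters are not in this window.

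Among regulators and partners of the 2 genes, 26 of 28 had a promoter peak in both libraries, against the 66.0% of all coding genes given above. Their median values were 2.71 and 4.65. By the geometric mean of both libraries, the highest were Mef2a (10.3 and 14.7) and Mef2d (8.89 and 12.5), partners of the myogenic factors at muscle genes, Tead1 (12.4 and 11.8), the factor that binds GGAATG, and Id2 (7.67 and 13.5), an inhibitor that takes up E proteins. Pax7, the satellite cell factor that acts upstream of Myf5, had 1.32 and 1.46. The promoter of Pax3, which acts above Myf5 in the embryo, had 0.68 in replicate 1 and no peak in replicate 2. Tcf21, a factor of head muscle precursors, had 0.511 in replicate 1 and no peak in replicate 2. Within the family, Myod1 had 3.17 and 7.39 and Myog had 1.62 and 2.58, so that Myf5 and Myf6 were the lower pair in both libraries.

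**Figure D3:**
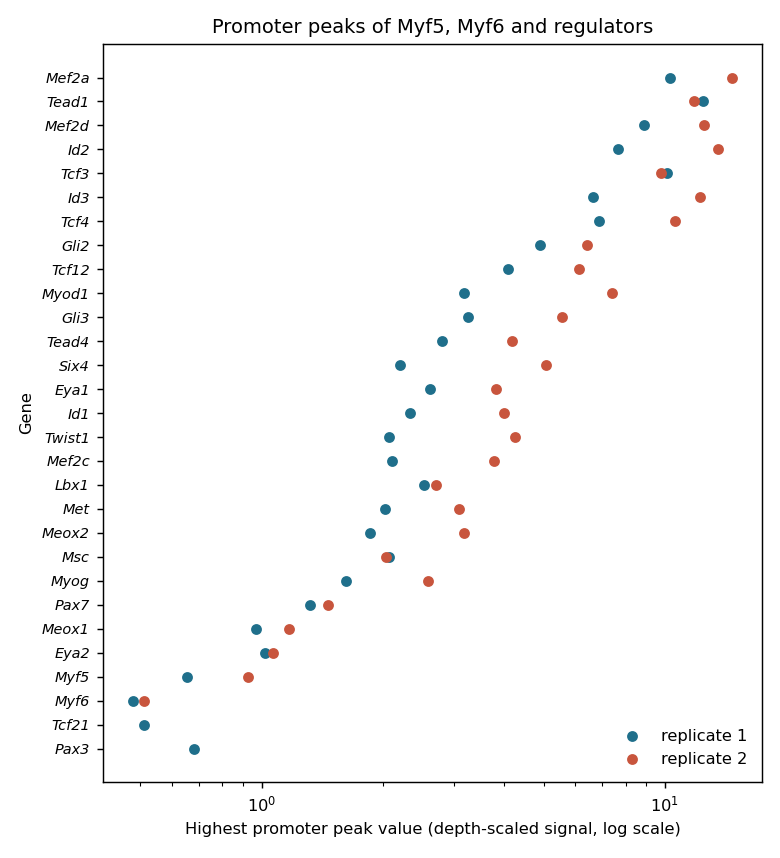
Highest promoter peak value (deposited depth-scaled signal, log axis) of Myf5, Myf6 and listed regulators, with 1 point per library. Myf5 (0.653 and 0.927) and Myf6 (0.479 and 0.511) sit below every plotted regulator that has a peak in both libraries, and Pax3 and Tcf21 have a point for replicate 1 alone.

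The loci of Myod1 and Myog, taken in the same way with 200 kb on each side, gave the nearest points of comparison. The Myf5 and Myf6 array had 3.4 and 4.61 peaks per 100 kb in replicates 1 and 2, which were above 21.7% and 24.3% of the windows of all coding genes. The Myod1 locus had 10.7 and 15.4, and the Myog locus had 19.4 and 15.9. Coding genes with a start inside numbered 2 in the array, 5 around Myod1 and 11 around Myog, and their part in the difference was not tested. The highest peak over 500 bp from a coding start was 1.17 and 2.12 in the array, 4.35 and 4.82 around Myod1 and 8.49 and 11.3 around Myog. Peaks shared with the other library were 93.0% and 64.5% around Myod1 and 67.9% and 79.7% around Myog. Set beside the 1815 windows with at most 2 coding starts, a choice made after the first values were seen, the array had more peaks per 100 kb than 57.5% and 59.3% of them, with medians of 2.89 and 3.69. Listed bases covered 0.766% and 1.03% of the array, more than in 51.3% and 52.6% of those windows. Footprints per 100 kb numbered 5.1 and 9.96, more than in 46.2% and 62.4% of them, with medians of 5.65 and 7.01. With 2 libraries of 1 group no test between loci was made.

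**Figure D4:**
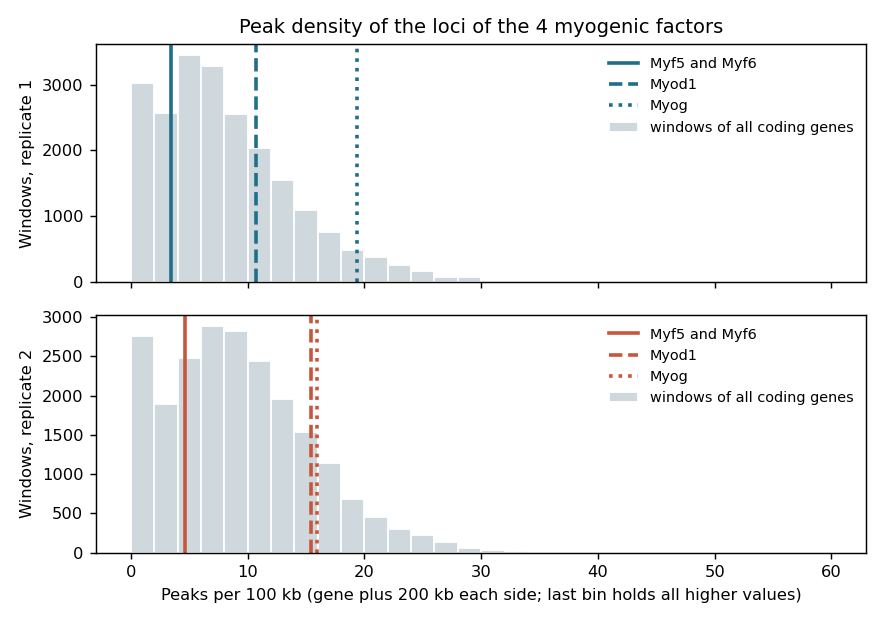
Number of coding-gene windows (gene plus 200 kb on each side, vertical axis) by peaks per 100 kb, for replicate 1 (top) and replicate 2 (bottom), with lines for the loci of the 4 myogenic factors. The Myf5 and Myf6 array lies at 3.4 and 4.61, left of Myod1 (10.7 and 15.4) and Myog (19.4 and 15.9).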

How the data were processed

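DNase-seq libraries of 1 group were analysed, each alone. Per the labels, peaks, footprints and per-position rates came from filtered alignments to mm10 of each library. Names of the aligner and callers were not given in the sources used here. Peak values are a deposited signal that the authors scaled to depth. Per the values, 100% were whole multiples of a step (0.00544 in replicate 1, 0.00587 in replicate 2, within 0.05 of a step), each step was taken as 1 tag, and the width of the window counted is not stated. The wider peak set was used unless the stricter is named. The per-position number is a p-value type of measure, the FDR deposited by the authors for positions under 0.05. Footprints carry the same deposited p-value type of number, 0.01, on every line, so only positions were used. Reads of CAST alleles were mapped to the B6 reference, and their loss was not analysed here.

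Chromosomes 1 to 19, X and Y were used with genes of GENCODE M21 and RefSeq's GRCm38.p6 sequence. Peaks were shared when they overlapped by 1 bp. Intervals are 95% exact Poisson and cover counting error only, since PCR copies were not separated. Tags of shared peaks were compared by a two-sided exact binomial test under the deposited scaling, adjusted by Benjamini-Hochberg over all shared peaks with a threshold of 0.05. The test was also run on simulated counts with planted changes and counting error alone. That run cannot show how the test behaves where libraries differ by more than counting error. The sites named are the promoter sites of both genes, every shared site and the 3 highest peaks of each library without a partner. Others were named after their values were seen. Of the regulators, the 4 highest by geometric mean, every one without a peak in both libraries, Myod1 and Myog were named, and Pax7 was chosen after its values were seen. A regulator that counts in the totals is left off the plot of promoter peaks and is not reported here. The members, lists and motifs were chosen with earlier results of these data known. The alternatives were other flanks, windows, FDR limits, scalings, the stricter peak set, repeats left out and each library left out. Python 3.11.15 was used with numpy 2.4.6, pandas 2.3.3, scipy 1.17.1, pysam 0.24.0 and matplotlib 3.10.9.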

Additional observations from a re-analysis of the deposited data

How the results depend on the processing

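No paired analysis was possible because the 2 libraries form 1 group. The mean peak density of 4.01 per 100 kb rose to 6.71 with a flank of 50 kb and was 1.94 in the stricter peak set. It was 5.19 with a flank of 100 kb. Listed bases, 0.896% of the array on average, made up 1.19% with a flank of 100 kb and 1.34% with 50 kb, and 0.604% and 0.401% at FDR limits of 0.01 and 0.001, which by construction list fewer bases. Shared peaks numbered 9, 5 in the stricter set and 11 when a gap of at most 150 bp was allowed, an alternative chosen after seeing the data that joins the Myf6 peaks of the libraries and those at -140.6 and -140.7 kb, 0.04 kb apart. Leaving out each library in turn gave 3.4 to 4.61 peaks per 100 kb, 0.766% to 1.03% listed bases, 21 to 41 footprints, a highest distal site of 1.17 to 2.12 and 26 to 28 regulators with a promoter peak. The stricter set gave no value for the promoters of Myf5 and Myf6. The lowest peaks of the array rest on 36 and 39 tags, which widens their counting intervals relative to their values.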
